A study of Mus musculus with 74 samples.

Results

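ChIP-seq peaks on simple tandem repeats were examined for mouse KRAB-ZFPs, zinc finger proteins with a KRAB domain. Members are peaks whose 200 bp window holds a run of 30 bp or more made of exact, back-to-back copies of a unit of 1 to 6 bases. The run was read from the mm9 sequence of the window, so the choice used no ChIP signal. Of 53011 peaks of 67 KRAB-ZFPs, 2278 held such a run (4.30%), and 62 KRAB-ZFPs had at least 1 of them. Windows moved by 1 kb to either side of each peak were read in the same way, and 3120 of 105975 held a run (2.94%). These peaks are called run peaks here, and a unit is named by its alphabetically first rotation over both strands, so that the unit AGC stands for CAG and CTG as well.

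Simple tandem repeats, or microsatellites, gain and lose copies by slippage when DNA is replicated, and some in coding exons encode runs of a single amino acid. KRAB-ZFPs bind DNA through arrays of zinc fingers, each touching a few neighbouring bases, and repress chromatin through the KRAB domain and its partner KAP1. They are known mainly for silencing retrotransposons, and many A runs of the genome are the tails of retrotransposons copied through RNA.

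Each protein was overexpressed with an epitope tag (3XFLAG or 3XHA) from a stably integrating vector, in pooled resistant clones, and was assayed once. F9 EC cells, a mouse embryonal carcinoma line, carried 18 proteins with an N-terminal FLAG tag and 30 with an HA tag at either end. Their reads were aligned with Bowtie, and a peak was kept when called over the input and also over the control ChIP of its tag. A further 10 F9 samples had C-terminal HA tags, were aligned with Bowtie2 and were called against Gm14296_control, itself an HA ChIP. B6 ES cells carried 9 proteins with a C-terminal HA tag, whose peaks were called over an input alone. With 1 sample for each protein, a difference between single proteins has no replicate check, and intervals given for shares are 95% Wilson intervals that cover counting error only. Tags inside peaks summed to between 1681 and 540220 for each KRAB-ZFP, while the depth of the libraries is unknown here.

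The runs are shown for the KRAB-ZFPs that hold most of them, at a member of high fold enrichment, with further KRAB-ZFPs added after their values were seen to show the units described for them. Each line gives the KRAB-ZFP, the unit and the mm9 position (counted from 1), and then the plus strand with the run inside the window in capitals and up to 25 bp of flank in lower case.
Gm14412, AGAGGC, chrX:34670547-34670678: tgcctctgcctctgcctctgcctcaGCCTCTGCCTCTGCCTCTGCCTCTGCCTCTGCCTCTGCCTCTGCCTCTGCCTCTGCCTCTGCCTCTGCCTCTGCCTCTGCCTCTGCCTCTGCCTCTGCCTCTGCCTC
Gm21082, AGAGGC, chr15:80814337-80814436: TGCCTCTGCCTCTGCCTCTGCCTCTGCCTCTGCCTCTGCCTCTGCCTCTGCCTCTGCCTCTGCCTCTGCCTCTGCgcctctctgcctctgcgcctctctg
Gm14420, AGC, chr1:186686447-186686527: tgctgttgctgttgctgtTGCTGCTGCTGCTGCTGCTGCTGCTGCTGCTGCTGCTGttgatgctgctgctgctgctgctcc
Zfp661, ACAGC, chr11:119674841-119674929: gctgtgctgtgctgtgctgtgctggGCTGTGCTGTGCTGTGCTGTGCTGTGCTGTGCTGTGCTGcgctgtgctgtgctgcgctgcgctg
Zfp738, AGAGC, chr6:127445726-127445814: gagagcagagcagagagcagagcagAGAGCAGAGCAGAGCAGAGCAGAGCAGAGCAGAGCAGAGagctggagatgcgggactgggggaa
Zfp534, AATGG, chr17:4626287-4626380: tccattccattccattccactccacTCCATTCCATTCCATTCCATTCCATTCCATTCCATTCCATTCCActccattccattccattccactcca
Zfp46, AGGCGG, chr12:74103342-74103490: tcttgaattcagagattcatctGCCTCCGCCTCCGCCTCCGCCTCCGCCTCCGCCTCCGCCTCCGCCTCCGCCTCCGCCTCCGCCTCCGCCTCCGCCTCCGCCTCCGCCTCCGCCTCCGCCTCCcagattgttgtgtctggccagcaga
Gm13225, AGCC, chr14:103863762-103863832: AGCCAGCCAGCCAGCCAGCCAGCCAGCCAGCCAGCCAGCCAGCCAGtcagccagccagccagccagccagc
Gm13225, ACTG, chr7:123461773-123461861: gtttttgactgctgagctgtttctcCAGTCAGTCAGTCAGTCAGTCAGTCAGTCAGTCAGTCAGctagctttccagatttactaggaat
Gm13225, A, chr9:40128898-40128977: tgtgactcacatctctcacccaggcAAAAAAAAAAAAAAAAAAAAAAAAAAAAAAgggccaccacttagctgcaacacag
Zfp617, A, chr5:75767635-75767696: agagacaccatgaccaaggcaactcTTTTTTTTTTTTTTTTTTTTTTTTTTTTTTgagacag
Gm13251, ATCC, chr19:41707772-41707828: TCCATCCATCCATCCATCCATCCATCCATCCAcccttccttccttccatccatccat
Zfp709, AAGG, chr2:113136121-113136192: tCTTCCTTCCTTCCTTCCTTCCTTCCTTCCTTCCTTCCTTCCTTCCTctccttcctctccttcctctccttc
In several lines the lower case flank goes on with the same unit after an interruption, as for Zfp661, Zfp738 and Zfp534, so the exact run is the core of a longer, imperfect array. In the A runs of Gm13225 and Zfp617 the flanks show no such continuation.

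The first comparison asked whether peaks met tandem runs more often than their surroundings did. The mean share of run peaks over the 67 KRAB-ZFPs was 4.83%, against 3.11% in shifted windows, a difference of 1.72 percentage points (SD 5.89, n = 67) that passed the threshold (two-sided sign-flip permutation test, p = 0.0127, adjusted over 10 tests 0.0317). Windows of different KRAB-ZFPs can overlap, so the 67 differences are not independent and this p-value may be too small. Direction was mixed: the share was higher than in shifted windows in 35 KRAB-ZFPs, and its median was 3.13% against 3.21%. With windows moved by 5 kb the difference was 1.16 points and no longer passed (permutation test, adjusted p = 0.246). Without Gm14412, Gm14420, Zfp534 or Zfp738 it was 1.39, 1.49, 1.29 or 1.51 points, with adjusted p of 0.0512, 0.0505, 0.0538 and 0.0523 in the permutation test. The pooled share without Gm14412 was 3.05% in peaks and 2.93% in shifted windows.

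The excess was held by few proteins. The interval of the share lay above that of the shifted windows in 12 KRAB-ZFPs, below it in 9, and overlapped it in 46. Zfp534 had the largest share, 17 of 52 peaks or 32.7% (21.5 to 46.2), against 2.88% in shifted windows. Gm14412 held 745 run peaks of 2787, or 26.7% (25.1 to 28.4), against 3.23%. Gm14420 followed with 76 of 383 peaks, 19.8% (16.2 to 24.1) against 3.13%, and Zfp738 with 34 of 176, 19.3% (14.2 to 25.8) against 3.69%. Zfp600 had 14.2%, Zfp872 12.2% and Zfp953 11.9% of their peaks on a run, each with an interval above that of shifted windows. Gm13145 (8.56%), Zfp457 (8.06%), Zfp759 (7.35%), Zfp429 (7.09%) and Gm13235 (6.03%) make up the rest of the 12, and Zfp429 was named after its values were seen. By their windows the 12 were not all separate. A window of another KRAB-ZFP overlapped by at least 25% in 93.75% of run peaks of Zfp953, 86.96% in Zfp872 and 73.7% in Gm13145. In their other peaks these values were 65.55%, 68.5% and 69.2%. The lowest values for run peaks among the 12 were 6.58% in Gm14412 and 7.9% in Gm14420. Gm14418 (9.09%) and Zfp810 (8.64%) had intervals that overlapped those of shifted windows, and in Gm14418 the deposited false discovery rate was 100% at the median.

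**Figure D1:**
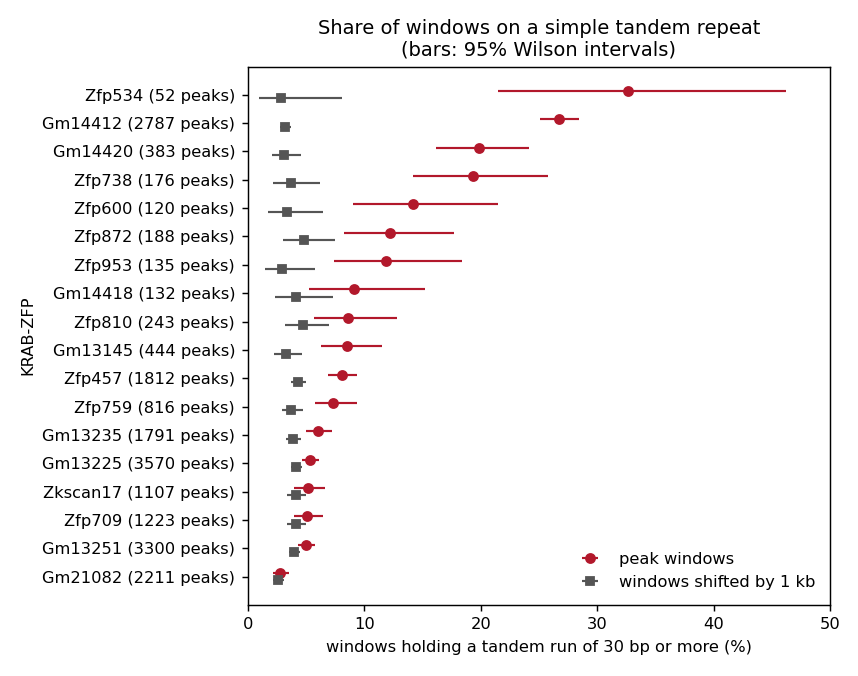
The percent of windows holding a tandem run of 30 bp or more is plotted for 18 KRAB-ZFPs, those with the most run peaks and those with the largest shares; circles are peak windows, squares are windows shifted by 1 kb and bars are 95% Wilson intervals. Zfp534, Gm14412, Gm14420 and Zfp738 lie far to the right of their shifted windows, while Gm21082 (2.80% against 2.63%) lies on top of them.

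In the other direction, 9 KRAB-ZFPs met runs less often than the surrounding windows by their intervals. Gm13152 had 1.06% of 5189 peaks on a run against 3.21% of shifted windows. Gm14419 had 0.23% against 2.33%, Gm14401 0.649% against 2.92%, Zfp961 0.892% against 3.16% and Gm13154 1.03% against 3.75%. No run peak was found for AW146154, Gm13051, Gm13139, Gm14410 and Rex2. A count of 0, read as up to 3 counts, allows a share of up to 1.89%, 0.545%, 1.78%, 2.11% and 4.48%. Their shifted windows had 1.26%, 1.36%, 1.48%, 1.41% and 2.24%. By its interval only Gm13051 of these was among the 9. These KRAB-ZFPs were named after their values were seen.

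Unit length set peaks and surroundings apart more than the total did. Units of 6 bases made up 40.9% of run peaks and 5.29% of the runs in shifted windows, and were found in 1.76% of peaks (1.65 to 1.87) against 0.156% (0.134 to 0.181). Units of 2 bases showed the opposite, with 0.992% of peaks (0.911 to 1.08) against 1.63% of shifted windows (1.55 to 1.70). Single-base runs were in 0.336% of peaks and 0.0944% of shifted windows, units of 5 bases in 0.443% and 0.208%, units of 3 in 0.289% and 0.198%, and units of 4 in 0.481% and 0.662%. These pooled shares weigh each KRAB-ZFP by its number of peaks, and single proteins carried much of them. Without Gm14412, which held 734 of the 931 peaks with units of 6 bases, these were in 0.392% of peaks and 0.152% of shifted windows. Without Gm13225 single-base runs were in 0.192% and 0.0921%, and without Gm14420 units of 3 bases in 0.165% and 0.199%, now the lower in peaks.

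Among 88 units seen in run peaks, AGAGGC led with 810 windows, followed by AC with 342, A with 178 and AG with 162. AGC came next with 73, then AAGG with 67, AAAG with 62, ACAGC with 45, AGAT with 31 and AATGG with 30. AC and AG were spread over 46 and 39 KRAB-ZFPs. By contrast 89.6% of the AGAGGC windows belonged to Gm14412, 89.04% of the AGC windows to Gm14420 and 77.8% of the ACAGC windows to Zfp661.

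**Figure D2:**
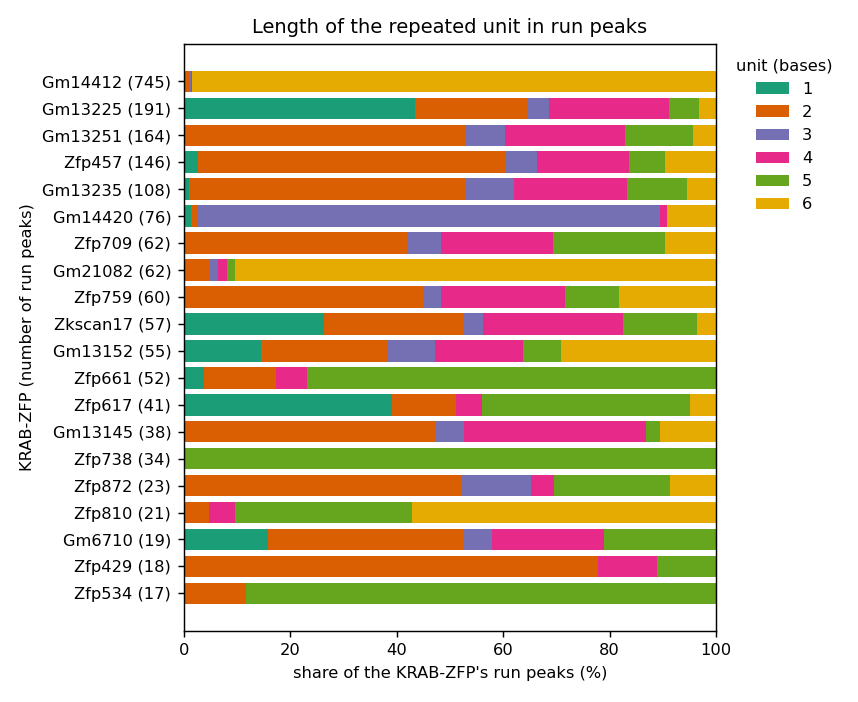
Stacked bars give the share of run peaks by the length of the repeated unit, in percent, for the 20 KRAB-ZFPs with the most run peaks, whose number stands in brackets. Gm14412 and Gm21082 are almost wholly on units of 6 bases, Gm14420 mostly on units of 3 and Zfp738 wholly on units of 5. Zfp661 has 40 of 52 on units of 5, and Gm13225 has the largest single-base block, 83 of 191.

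Gm14412 had AGAGGC as the unit in 97.45% of its run peaks, which were 26.7% of its peaks. The unit, which reads GCCTCT on the other strand, was in 726 of its 2787 peaks (26.05%) and in 4 of 5574 shifted windows, a share 363 times as large. Its peaks held 842 of the 1861 AGAGGC runs of mm9, or 45.2% (43.0 to 47.5), where all KRAB-ZFPs together held 0.407% of all 568295 runs. The held share rose with run length: 17.2% of runs of 30 to 59 bp, 35.07% of those up to 89 bp, 45.05% from 90 bp to under 120 bp, 61.7% from 120 bp to under 180 bp and 85.3% (80.4 to 89.1) of those of 180 bp or more. Shorter stretches were held less, 8.52% of those of 24 to 29 bp and 4.57% of those of 18 to 23 bp. A longer run offers more positions for a summit, and that part of the rise was not tested.

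The part of the run inside the window of Gm14412 had a median of 141 bp. In 585 of 726 peaks it was longer than 100 bp and so reached the summit at the centre of the window by its length alone. Among the 141 peaks with at most 100 bp the summit was inside the run in 76 (53.9%). The peaks lay between genes in 481 cases and in introns in 245, on 20 chromosomes, and none lay in an exon. The member of highest fold with this unit, 80.5-fold with 136 tags, lies in an intron of Nkap on chrX. Fold did not go up with run length in these peaks: the median was 36.03 for 45 peaks with 30 to 59 bp in the window and 29.1 for 151 with 180 to 200 bp, and the median tag counts were 114 and 71. The aligner, the control and the protein cannot be told apart in a single sample. The other 9 KRAB-ZFPs of the same setup held AGAGGC in 0 of 7691 peaks, which allows a share of up to 0.039%. Of these peaks 5685 were those of Gm14406, which had a run of any unit in 0.211% of peaks and 0.475% of shifted windows.

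Gm21082 and Zfp810, both FLAG samples, met the same unit in another way. Gm21082 had 56 AGAGGC peaks of 2211 (2.53%) and 3 of 4418 shifted windows, and its total share did not stand out since it had few other runs, 6 in all. The summit was inside the run in 1 of 56 peaks and a median of 32.5 bp away from it, and in 0 of 11 peaks of Zfp810, at 46 bp. Of AGAGGC runs of 180 bp or more Gm21082 held 1 of 258, or 0.388% (0.068 to 2.16), and of runs of 30 to 59 bp 5.68% (4.06 to 7.91). Where the windows of Gm21082 and Gm14412 were compared, 34 of the 56 peaks of Gm21082 (60.7%) overlapped a peak of Gm14412 and 40 of the 726 of Gm14412 (5.51%) one of Gm21082. At chr15:80814337-80814436 in an intron of Sgsm3 the fold was 90.05 for Gm21082 and 87.95 for Zfp810.

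**Figure D3:**
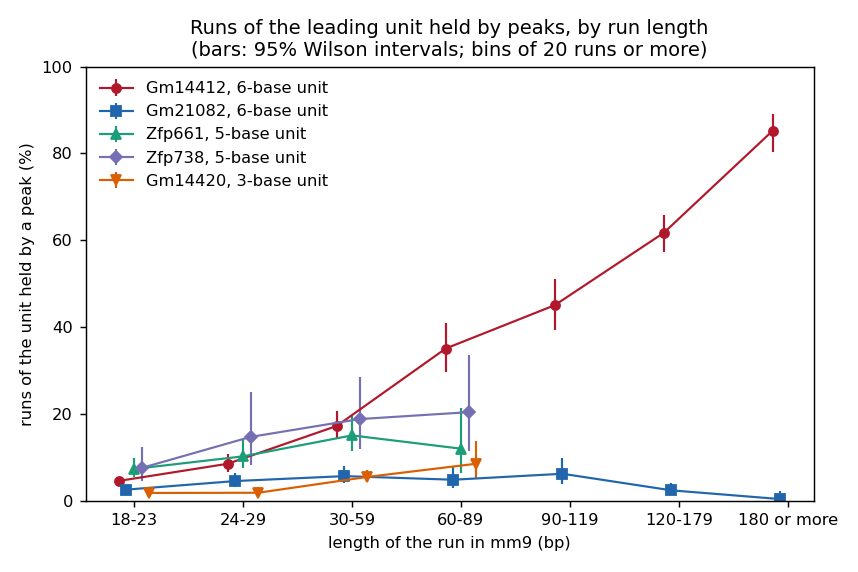
The percent of all mm9 runs of the leading unit that lie in a peak is plotted against run length in bp, with 95% Wilson intervals, for bins of at least 20 runs. The Gm14412 line climbs from 4.57% to 85.3%, while the Gm21082 line for the same unit reaches 6.23% at most and ends at 0.388%.

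Gm14420, assayed in ES cells, was found on CAG runs. The unit AGC was in 65 of 383 peaks (17%) and in 0 of 766 shifted windows, a share at least 43.3 times as large when 3 counts are allowed to the shifted windows, and the other 8 ES samples held it in 0 of 8739 peaks. Its peaks held 69 of 1150 AGC runs of mm9, 6.0% (4.77 to 7.52), with 5.49% of runs of 30 to 59 bp and 8.54% of 60 to 89 bp. Summits lay inside the run in 24 of 65 peaks and at a median of 10 bp from it. The deposited folds of these peaks ran from 5.59 to 35.9 with a median of 10.8, and that of its other peaks was 9.68. Its peaks were called without an enrichment threshold. The deposited false discovery rate had a median of 29.2% in its run peaks of any unit and 29.7% in its other peaks.

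Below the length limit the same unit continued: the longest AGC stretch was 12 to 17 bp in 7.31% of Gm14420 peaks and 0.131% of shifted windows, 18 to 23 bp in 3.92% and 0.131%, and 24 to 29 bp in 2.61% and 0%. Some run peaks of Gm14420 had the run in a coding exon, with the unit on the coding strand. Among these genes were Zfhx3 (fold 10.4), a homeodomain transcription factor, Dusp8 (9.57), a phosphatase of MAP kinases, and D6Ertd527e (6.84) and A230006K03Rik (9.66). The run in the UTR of Ndrg3 was held by Gm14420 (fold 9.94), Gm13152 (48) and Gm13154 (60.8), all named after their values were seen. Of 40 genes listed for known repeat tracts, among them Htt and Atxn1, 38 were annotated and 31 held a run in mm9. A run peak was found in 4 of them: Zfhx3, Aff2 (Gm14412 on AGAGGC, intron, fold 28.2), Runx2 (Gm13251 on AC, intron, 24.2) and Maml3 (Gm14401 on AC, 13.7, and Zfp808 on A, 23.7, introns). The listed genes held 1069 runs, of which 5 (0.468%) lay in a peak, near the 0.407% over all runs of mm9.

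Zfp661 and Zfp738 were both found on units of 5 bases, and were named partly after their values were seen. Zfp661 held ACAGC in 35 of 1065 peaks (3.29%, against 0.141% of shifted windows) and in 57 of 391 runs of mm9, 14.6% (11.4 to 18.4). Its strongest run peak, in an intron of Rptor on chr11, had a fold of 130.3 with 311 tags, while the median over the 35 was 30.08 and that of its other peaks 29.6. All 34 run peaks of Zfp738 had units of 5 bases, 19 of them AGAGC and 8 ACAGC. Zfp738 held 29 of 143 AGAGC runs, 20.3% (14.5 to 27.6), and its summits lay inside the run in 14 of 19 peaks. In 3 of the 19 the run was longer than 100 bp and so reached the summit by its length alone. Among the 16 with at most 100 bp the summit was inside in 11 (68.75%). Of the 8 ACAGC peaks of Zfp738 3 overlapped a peak of Zfp661, or 37.5%, and of the 35 of Zfp661 3 as well, or 8.57%.

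The unit AATGG was rare, with 41 runs in mm9, and 22 of them lay in a peak. Zfp617 and Gm30910 were named after their values were seen. Zfp617 held 18 (43.9%, 29.9 to 58.96), Zfp534 17 (41.5%, 27.8 to 56.6) and Zfp810 9 (22%), while 0 shifted windows of any KRAB-ZFP held it. All 3 are FLAG samples called against the same controls, and the FLAG setup held all 30 AATGG windows. At the run chr17:4626312-4626355 the fold was 78.8 in Zfp534, 81.03 in Zfp617 and 67.8 in Zfp810. At chr9:19379881-19379951 it was 56.3, 67.5 and 55.3, with 29.4 in Gm30910. The run in an intron of Dpp9 on chr17 had 69.8 in Zfp534 and 77.6 in Zfp617 and no peak in Zfp810, and that in Ano2 on chr6 had 46.9, 40.5 and 47.7.

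By fold, but not by tag count, the AATGG peaks of these proteins were among the strong ones. The median fold was 50.6 in Zfp534 against 21.01 over its peaks without a run, and 58.8 in Zfp617 against 28.9. In Zfp810 it was 47.7 against 30.15. The median tag counts were 29 against 28 in Zfp534, 35.5 against 32 in Zfp617 and 20 against 26 in Zfp810. The summit was inside the run in 11 of 11 peaks of Zfp534, 10 of 12 of Zfp617 and 5 of 5 of Zfp810. Of the 11 peaks of Zfp534 7 (63.6%) overlapped one of Zfp617 and 6 (54.5%) one of Zfp810. Among peaks without a run, 0 of 35 of Zfp534 overlapped one of Zfp617.

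Gm13225 had the second largest number of run peaks, and its units were mixed. ACTG, in 16 peaks and 0 of 7136 shifted windows, covered 21 of 153 runs of mm9 (13.7%), and 16 of the 17 ACTG windows of all KRAB-ZFPs were its own. These 16 peaks had a median fold of 24.9 with a highest of 38.1, against 11.75 over the peaks of Gm13225 without a run, and the summit was inside the run in 12. The peak of highest fold, 39.5 with 342 tags, lay on AGCC at chr14:103863762-103863832.

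The A runs of Gm13225 were the far end of a wider distribution. A runs of 30 bp or more were in 83 of its peaks, 2.33% (8 of 7136 shifted windows), but a stretch of 12 or more A was in 67.5% of its 3570 peaks and in 3.36% of shifted windows. That was the largest such share among the 67 KRAB-ZFPs, ahead of Zfp600 with 45.8% and Gm14418 with 34.1%. By the longest stretch, 41.9% of Gm13225 peaks held 12 to 17 A, 15.7% held 18 to 23, 7.54% held 24 to 29 and 2.35% held 30 or more. The median fold of its A run peaks was 11.73 and that of its peaks without a run 11.75. Over all KRAB-ZFPs, the 157 members with a run of 30 or 31 bp had a median fold of 13.8, and the 274 windows just outside the limit, with 28 or 29 bp, one of 14.

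In the 25 F9 samples other than Gm13225 that had an A run peak, the run lay on the same side of the summit in 83 of 84 peaks. Apart from Zfp617, Zkscan17 and Gm13152, each of these samples had at most 4 such peaks, and many had only 1. Read so that the run is A and not T, the run was upstream of the summit in 16 of 16 peaks of Zfp617 (median offset -72 bp), 15 of 15 of Zkscan17 (-66.5 bp) and 8 of 8 of Gm13152 (-62 bp). It was upstream in 33 and downstream in 50 of the 83 peaks of Gm13225. Leaving out Gm13225, Zfp617 and Zkscan17, it was upstream in 52 of 53 peaks of 23 F9 samples (98.1%), in 4 of 11 peaks of 6 ES samples (36.4%), and in shifted windows in 48 of 99 (48.5%). These peaks of different proteins are not independent of each other, and the proteins in this account were chosen after their values were seen, so no test was made.

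**Figure D4:**
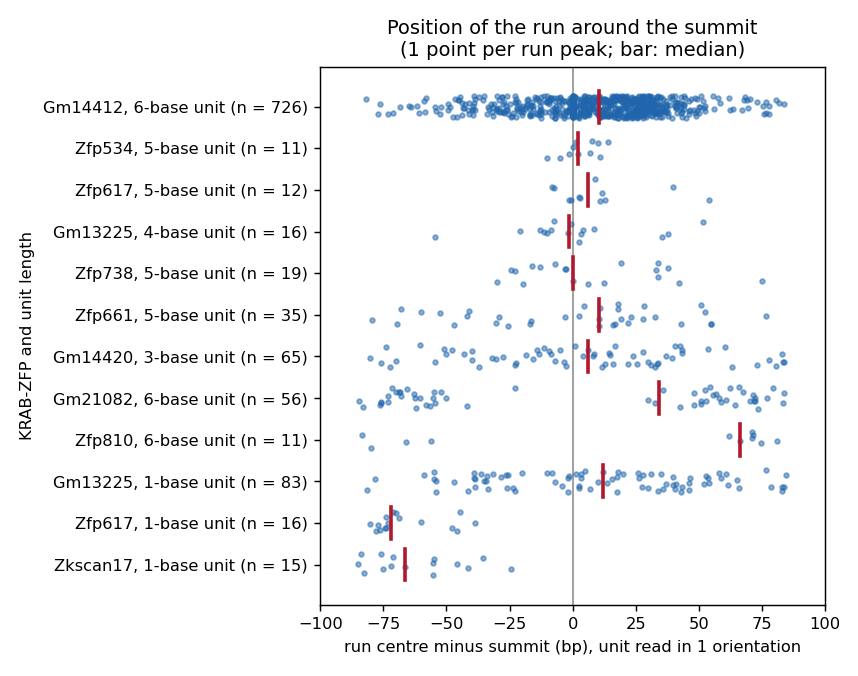
Each point is a run peak, placed by the distance in bp from the summit to the centre of its run, with the unit read in 1 fixed orientation (A and not T), and red bars are medians. Runs of Zfp534 and Zfp617 (5 bases) crowd around the summit (medians 2 and 6 bp), those of Gm14412 (median 10.5 bp) are held near it by their length in the window, those of Gm21082 leave the centre nearly empty, and the A runs of Zfp617 and Zkscan17 lie wholly to the left.

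A smaller set was found in Zfp46, named after its values were seen. Zfp46 held AGGCGG in 8 of 300 peaks and 8 of 60 runs of mm9, 13.3% (6.91 to 24.2), with runs of 59 to 102 bp in the window and a median fold of 26.4. Its 8 peaks are 50% of the 16 peaks on this unit.

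The remaining KRAB-ZFPs with many run peaks were led by AC. The unit was in 62 peaks of Zfp457 (3.42%) and 59 of 3623 shifted windows, in 50 of Gm13251 (1.52%) and 100 of 6595, in 35 of Gm13235 (1.95%) and 50 of 3581, in 17 of Zfp709 and 35 of 2444, and in 16 of Zfp759 and 17 of 1628. AC runs number 190511 in mm9, and the 70 held by Zfp457 are 0.0367% of them. Zkscan17 had 15 A runs and 10 AC runs among its 57.

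Run peaks were shared between KRAB-ZFPs more often than other peaks, where a peak is shared if its window overlaps that of another KRAB-ZFP by at least 25%. Over the 44 KRAB-ZFPs with at least 5 run peaks the mean was 34.8% of run peaks and 22.4% of other peaks, a difference of 12.5 points (SD 17.7, higher in 36 of 44; two-sided sign-flip permutation test, p = 2e-05, adjusted 0.0002, the smallest p these resamples can give). A shared window counts for every KRAB-ZFP that holds it, so the 44 differences are not independent. The test treats them as independent, so its p-value may be too small. The largest differences were in Gm21082 (67.7% against 5.58%) and Zfp534 (70.6% against 17.1%), and the largest in the other direction in Zfp595 (33.3% against 55.1%). Of 566 shared run peaks, 49.3% were shared only within their setup, 32.3% only with another setup and 18.4% with both. No such split was made of other peaks. Pooled by setup, 42.4% of run peaks and 28.3% of other peaks were shared in F9 HA samples aligned with Bowtie. The values were 29.4% and 9.68% in FLAG, 10.3% and 8.37% in ES and 8.55% and 6.88% in Bowtie2 samples.

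**Figure D5:**
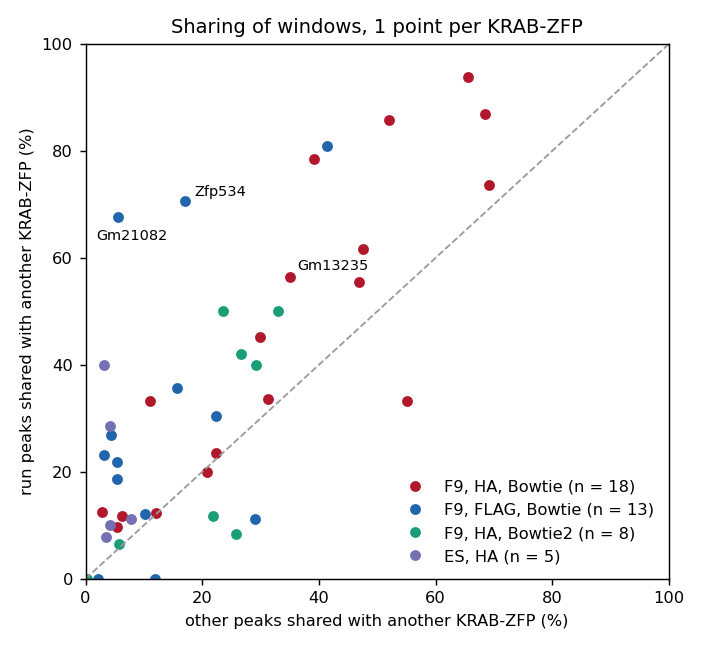
Each point is a KRAB-ZFP with at least 5 run peaks, with the percent of its other peaks shared with another KRAB-ZFP on the x axis and that of its run peaks on the y axis, coloured by setup. Points above the dashed line, 36 of 44, have the larger share in run peaks, with Gm21082 and Zfp534 farthest above it.

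The runs shared by 5 or more proteins mostly had only A and G on a single strand, a property looked at after the runs were seen. Of 2311 held runs, 2077 were held by 1 KRAB-ZFP and 13 by 5 or more, and of these 13, 10 (76.9%) had units of A and G only, against 16.5% of runs held by 1 KRAB-ZFP and 37.9% of all runs of mm9. Gm14412 alone held 842 AGAGGC runs, a unit with C, and the 16.5% was not computed without it. The run of ATCC in an intron of Slit1 at chr19:41707770-41707803 was held by 8 with folds of 22.4 to 49.4. Among 6 runs held by 7 were AGAGGG at chr1:15998241-15998295, AGAGG at chr1:33156171-33156206 and AAGAG at chr1:33156203-33156285. The last pair of these overlap and lie in the same peaks, as do a pair in Tmco5b, so the 13 runs make up 11 loci, 8 of them of A and G only. Gm13235 and Zfp457 held 11 of the 13 runs each, and Gm13251, Zfp709 and Zfp872 9 each. All KRAB-ZFPs on these runs were F9 samples aligned with Bowtie and called over the same input. None was a Bowtie2 or ES sample. Gm13235, Zfp457 and Zfp709 were called at the looser thresholds, p under 1e-05 and enrichment over 10. Whether the setup adds to this sharing was not tested. At the Slit1 run Gm13251 had its run peak of highest fold, 49.4 with 106 tags, as had Zfp457 (22.4, 50 tags) and, on the neighbouring AAGG run, Gm13235 (27.3, 50 tags). In Zfp709 it was the AAGG run in an intron of Tmco5b on chr2 (26.7, 26 tags).

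Other readouts of the peaks, which the choice of members did not use, were compared within each of the 44 KRAB-ZFPs. As with sharing, KRAB-ZFPs with windows in common are not independent. The p-values of these and the following permutation tests may therefore be too small. Called width was smaller in run peaks, with a difference of -0.035 in the mean of the median log10 bp (2.47 against 2.51, SD of the difference 0.062, lower in 32 of 44; permutation test, p = 0.00042, adjusted 0.0021). The log2 fold enrichment was 4.25 in run peaks and 4.24 in other peaks, a difference of 0.005 (SD 0.348, permutation test, p = 0.926), with Zfp534 higher by 1.21 and Gm14419 lower (difference -1.26). The log2 tag count differed by -0.045 (SD 0.291, permutation test, p = 0.311, adjusted 0.519).

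Run peaks were less often near a transcript start. The summit was within 1 kb of one in a mean of 5.15% of run peaks and 10.8% of other peaks, a difference of -5.63 points (SD 11.1, lower in 34 of 44; permutation test, p = 0.00124, adjusted 0.00413). The difference was -28.5 points in Gm13152 (21.8% against 50.4%) and -39.01 in Zfp46 (7.14% against 46.2%). Of all run peaks 0.527% had the summit in a coding exon, 0.571% in a UTR, 38.1% in an intron and 60.6% between genes, where other peaks had 2.69%, 3.60%, 34.1% and 58.8%.

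The distance from the summit to the run was a median of 30.3 bp in run peaks and 23.6 bp from the centre of shifted windows with a run, as means over 43 KRAB-ZFPs, a difference of 6.70 bp (SD 18.3; permutation test, p = 0.0217, adjusted 0.0435). It was -0.109 bp with runs of 40 bp or more, and the adjusted p of the permutation test was above 0.05 in 24 of the 43 fits that leave out a KRAB-ZFP. The difference was positive in 27 KRAB-ZFPs and negative in 16, among them Zfp46 (-32.5 bp) and Zfp738 (-21 bp). That of Gm14412 (-22.5 bp) is fixed by run length, since most of its runs fill over 100 bp of the window.

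Setups were compared by the excess, the share of run peaks minus that of shifted windows. It was 1.91 points in 58 F9 samples and 0.455 in 9 ES samples (permutation test, p = 0.579), 1.35 in FLAG and 1.96 in HA samples aligned with Bowtie (difference -0.614, 18 against 30, permutation test, p = 0.794), and 2.80 points in 10 Bowtie2 samples against 1.73 in 48 Bowtie samples (permutation test, p = 0.578). The setups carried different proteins, so these compare sets of proteins. Single proteins decided 3 of these values: without Gm14420 the F9 to ES difference was 3.49 points (adjusted p = 0.0107, permutation test), without Zfp534 the FLAG to HA difference was -2.29 (adjusted p = 0.0458, permutation test), and without Gm14412 the aligner difference was -1.23.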

How the data were processed

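Per the file's contents and the labels, the authors mapped ChIP-seq reads to mm9 with Bowtie or Bowtie2, choosing pseudo-randomly where a read matched more than 1 place equally well, and called peaks per sample with MACS 1.4.2 (submitters' processing notes). Thresholds were p under 1e-10 or 1e-05 with enrichment over 20 or 10, and ES peaks had no enrichment threshold. The deposited table holds, per peak, a tag count, a score (-10 log10 p), a fold enrichment, which is a ratio, and a false discovery rate in percent, and a 200 bp window. Reads of long exact repeats can be placed wrongly, which can move, add or remove peaks there (not tested). A name carried by 244 peaks, absent from the labels, was left out.

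Exact runs were read from NCBIM37 (mm9) with Python 3.11.15 and numpy, and places from gencode vM1 genes. The longest run in a window gave its unit. Shifted windows on assembly gaps were dropped (47). Each KRAB-ZFP was 1 value in two-sided permutation tests (100000 resamples), adjusted by Benjamini-Hochberg over 10 tests, after a check on simulated data. Members, gene lists and tests were chosen with earlier results of these data known. KRAB-ZFPs named were the 10 with the most run peaks and the 10 with the largest shares among those with at least 5, units were the 10 most frequent and those leading a named KRAB-ZFP, and loci were by highest fold or most KRAB-ZFPs; others were named after seeing values. Alternatives changed the minimum run, copies counted, peaks kept, shift, overlap, minimum of members and tag position, or left out a KRAB-ZFP. Some items are not reported here.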

Additional observations from a re-analysis of the deposited data

Results flagged for a closer look

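In the ES samples, Gm14420 stood apart from the other 8 KRAB-ZFPs, with 19.8% of its peaks on a run and an excess of 16.7 points over shifted windows, where its gap to the next KRAB-ZFP took more than 0.493 of the range. In the Bowtie2 samples, Gm14412 stood apart from the other 9 in the same way, with 26.7% and an excess of 23.5 points. Chance flags about 1 in 20 groups for each quantity, and several quantities were examined in each setup, so a flag by chance is likelier than that. The excess contains the share, so these flags are not separate. The other setups were too large to be examined so.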

How the results depend on the processing

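No paired analysis was possible because each KRAB-ZFP had 1 sample, so that no replicate numbers pair samples of different proteins, while the sign-flip tests compare peaks within a protein. With a run of at least 24 bp 3170 peaks were members, with 40 bp 1597 and with whole copies only 2257. The share of run peaks against shifted windows gave 1.16 points with a shift of 5 kb and no longer passed, 4.25 points with strict peaks, of score over 100 and fold over 20 (63 KRAB-ZFPs, adjusted p = 0.0031, permutation test), and 1.29 to 1.79 when a KRAB-ZFP was left out. The distance of the run from the summit no longer passed at 24 bp (5.52 bp) or with strict peaks (5.86 bp), turned at 40 bp (-0.109 bp), and gave 5.96 to 7.63 bp when a KRAB-ZFP was left out. The log2 fold difference, which did not pass, turned at 40 bp (-0.026) and ran from -0.023 to 0.035 without a KRAB-ZFP. The aligner difference turned with strict peaks (-1.69 points) and ran from -1.23 to 1.67, the F9 to ES difference from 0.970 to 3.49 and the FLAG to HA difference from -2.29 to -0.143, turning to 0.557 with N-terminal HA tags only. The cause was not tested. Of single proteins, with runs of at least 24 bp the excess of Gm13225 went from 1.16 to 8.60 points, and that of Zfp600 from 10.8 to 19.6. At 40 bp it was 10.8 in Gm14420, 4.44 in Zfp953, 2.93 in Gm13145, 0.286 in Gm13251, -0.436 in Gm13225 and -0.453 in Zkscan17. With strict peaks Gm13225, Zfp457, Gm13235, Gm14420, Zfp709, Zkscan17 and Zfp600 also moved, on 0 to 11 run peaks each. Their excesses then ran from -2.78 (Zkscan17) to 38.5 points (Gm13225), and such small sets weigh as much as large ones in the mean of 4.25 points. Sharing, width and transcript start differences kept their direction and their call under the alternatives tried, at 11.3 to 13.3 points, -0.039 to -0.031 and -6.14 to -4.86 points without a KRAB-ZFP, and the log2 tag difference, at -0.066 to -0.029, did not pass in any. No depth of a library is known here, so a run without a peak is not evidence of absent binding.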
